A study of Rattus norvegicus with 80 samples.

Results

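Mammary epithelial cells (MECs) of the rat line IF were compared with MECs of wildtype rats. The 6 libraries, 3 of each line, were picked out by their labels from 80 libraries of Rattus norvegicus, with earlier results of these data known. The series holds 3 lines with mutations in Nf1, named IF, PS and IFPS, and it covers whole mammary pads, tumors, and MECs, adipocytes and fibroblasts from normal tissue. IF MECs carry the genotype label IF and wildtype MECs the label wildtype. Both were cultured and harvested near confluency, with RNA extracted on a column. PS and IFPS MECs, with 3 libraries each, were grown and extracted in the same way, and the series text describes the normal cells as flow sorted. The labels give no age, do not spell out the alleles and do not say whether each library came from its own animal. The p-values therefore measure the spread between these libraries, which may be technical.

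Nf1 encodes neurofibromin, which speeds up the hydrolysis of GTP by Ras and so switches Ras signaling off. When neurofibromin is lost, Ras and the MAP kinase cascade below it can stay active for longer. MECs form the inner luminal and outer basal layers of the mammary ducts, and breast cancers can carry lesions in NF1.

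The table of counts names genes only by Ensembl identifiers, and 0 of the 32883 identifiers could be paired with a symbol. The level of Nf1 and the named markers of luminal, basal and other cells were therefore not analysed here, and 4 identifiers are described below without a function. In their place, cell-type-enriched genes were defined from the PS and IFPS libraries alone, as genes at least 4-fold higher in 1 isolated cell type than in the other 2. The 972 MEC-enriched genes took 4.12% to 6.03% of the counts in the 6 MEC libraries and 0.209% to 0.415% in IF and wildtype fibroblasts. By this measure no MEC library went against its label.

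IF libraries were shallower than wildtype libraries. Total counts were 22735048, 24567529 and 23568116 in IF MECs and 30412861, 29673772 and 31632249 in wildtype MECs. Libraries of one line were about as similar to each other as to the other line. The Spearman correlation over genes was 0.991 to 0.994 in the 6 pairs within a line and 0.985 to 0.993 in the 9 pairs between lines. Among the wildtype libraries replicate 2 stood apart. It correlated at 0.993 with IF replicate 1, against 0.991 with each of the other wildtype libraries, which correlated at 0.993 with each other. IF replicate 3 correlated at 0.994 with IF replicate 2, 0.991 with IF replicate 1 and 0.992 with wildtype replicate 1. No pair of libraries within a line agreed within sampling noise, and each counted as 1 replicate.

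The first question was which genes differed between IF and wildtype epithelial cells. Of 14688 genes tested, 120 passed an adjusted p-value of 0.05, which is 0.817% of those tested, by the quasi-likelihood test of edgeR with p-values adjusted over all genes tested (Benjamini-Hochberg). 70 genes were higher in IF (0.477%) and 50 were lower (0.34%). The median log2 fold change was 0.76 in the higher genes, with a maximum of 6.61, and -0.44 in the lower genes, with an extreme of -3.30. 25 of the higher and 8 of the lower genes changed at least 2-fold, and 13 and 1 changed at least 4-fold. 24 of the higher and 37 of the lower genes changed by less than 1.5-fold.

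**Figure D1:**
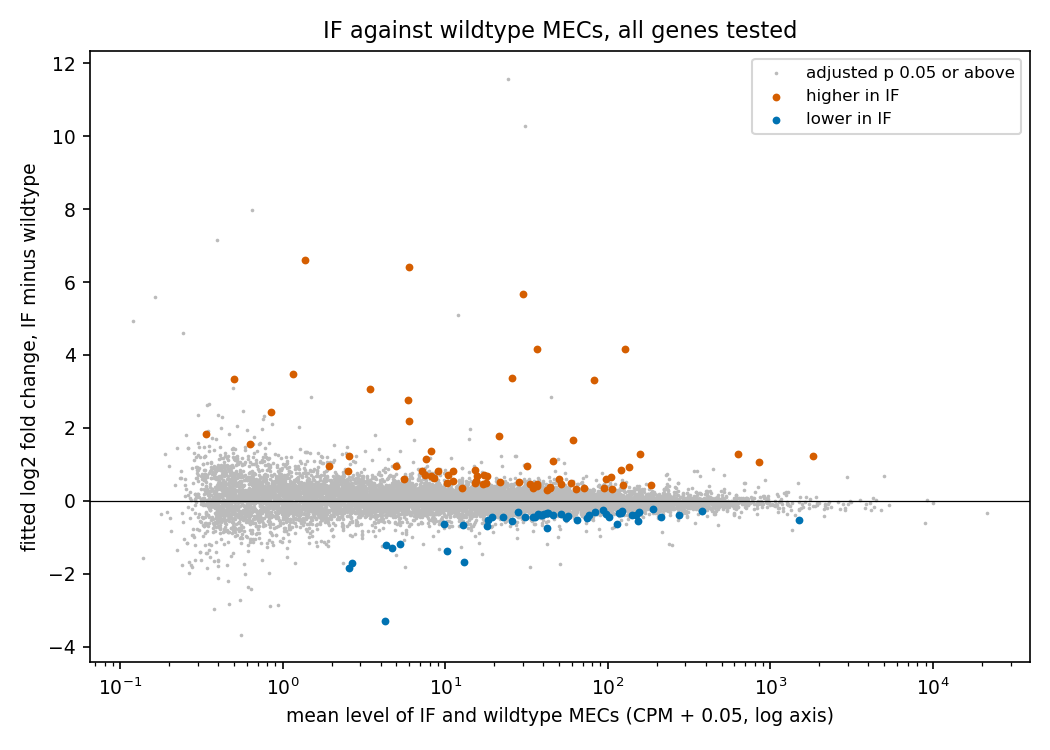
Fitted log2 fold change of IF against wildtype MECs (vertical axis) by mean level (horizontal axis, log scale, in CPM, which are counts scaled to a common library total, plus an offset of 0.05) for the 14688 genes tested. Colored points are the 70 genes called higher and the 50 called lower; the called genes reach 6.61 upwards and -3.30 downwards, and some of the largest fitted changes are gray and not called.

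A large difference often failed the test. 305 genes (2.08%) had a fitted change of at least 2-fold, and 272 of these were not called. In 104 of those 272 genes the IF and wildtype libraries overlapped. All 120 called genes had the 3 IF libraries outside the range of the 3 wildtype libraries, a pattern that 20.5% of all genes tested showed (9.9% with IF above and 10.6% with IF below wildtype).

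Called genes were found at most levels of expression, with the smaller changes among the abundant genes. Levels were grouped by mean CPM in PS and IFPS MECs, which do not enter the fold change but share the fit's estimate of the spread. Of 1672 genes under 1 CPM, 3 were called (0.179%). From 1 to 10 CPM 26 of 3549 genes were called (0.733%), and the median size of their log2 fold change was 1.21. From 10 to 100 CPM 66 of 7261 genes were called (0.909%), with a median size of 0.48. Over 100 CPM 25 of 2206 were called (1.13%), with a median size of 0.43. The median standard error of the log2 fold change was 0.41 under 1 CPM and 0.066 over 100 CPM.

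The number of called genes rested on single libraries. It was 37, 39 and 38 without IF replicates 1, 2 and 3. Without wildtype replicate 1 it was 26, without wildtype replicate 2 it was 645, and without wildtype replicate 3 it was 10. All 120 genes kept their direction in these 6 fits. A fit of only the IF and wildtype MECs called 23 genes, 21 higher and 2 lower. Of the 120 genes, 10 passed the threshold in all 6 fits that left out a library, 7 higher and 3 lower. Their absolute log2 fold changes ran from 0.61 to 6.40, with a median of 2.58. In 66 of the 120 genes the call held in 1 of the 6 fits, and the fit without wildtype replicate 2 kept all 120.

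**Figure D2:**
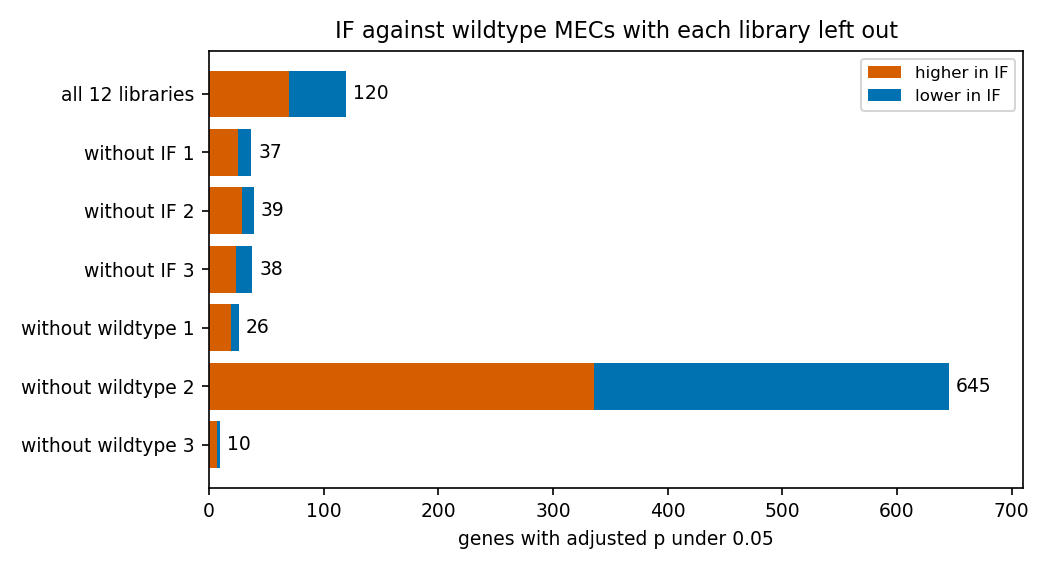
Number of genes called between IF and wildtype MECs (horizontal axis) with all 12 MEC libraries and with each of the 6 IF and wildtype libraries left out in turn. Bars are divided into genes higher and lower in IF; the count is 120 with every library, 645 without wildtype replicate 2 and 10 without wildtype replicate 3.

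The identifiers printed here are the 2 higher and the 2 lower with the largest called change. ENSRNOG00000057054 was nearly absent from wildtype MECs, with 2, 0 and 0 counts, and had 55, 64 and 68 counts in IF MECs. The IF libraries were thus all far above the wildtype libraries, at 2.63 ± 0.249 CPM (SD, n = 3) against 0.0227 ± 0.0392 CPM. The ratio of summed levels was 118, with an exact 95% interval of 32.2 to 982 that covers counting error only. The fitted log2 fold change was 6.61 ± 1.17 (SE, derived from the test statistic), with an adjusted p of 0.031 by edgeR's test. Without wildtype replicate 1, which held the 2 wildtype counts, the fitted value was 9.10, which then rests on a group at 0 and is no bound. The call held in 1 of the 6 fits that left out a library, the one without wildtype replicate 2.

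ENSRNOG00000057054 was present in most other wildtype libraries and nearly absent in a few. Wildtype fibroblasts had 47, 50 and 2 counts and wildtype adipocytes had 16, 30 and 32. The wildtype pad numbered 15 had 0.119 CPM, and the other wildtype pads had 1.94 to 2.53 CPM. PS MECs had 2, 61 and 90 counts and IFPS MECs had 54, 53 and 65. The 1 low PS library had the same count as the highest wildtype MEC library, at 0.0702 against 0.068 CPM. The other 5 libraries of PS and IFPS lay near IF. In fibroblasts the log2 fold change of IF was 0.61, with an adjusted p of 0.742 by edgeR's test.

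ENSRNOG00000006365 was the other strongly higher identifier, and its call held in all 6 fits that left out a library. Wildtype MECs had 0.068, 0.238 and 0.0965 CPM (2 to 7 counts), and IF MECs had 6.75, 14.1 and 14.1 CPM (155 to 348 counts). IF replicate 1 was the lowest of the IF libraries, and it still lay far above every wildtype library. The log2 fold change was 6.40 ± 0.58 (SE), with an adjusted p of 0.000805 by edgeR's test. Without wildtype replicate 2 it was 7.06. PS MECs had 6.63, 6.62 and 14.8 CPM, close to the IF levels and above every wildtype library. IFPS MECs had 0.277, 0.0451 and 0.0826 CPM, close to the wildtype levels and below every IF library.

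The rise of ENSRNOG00000006365 in IF extended to fibroblasts and not to adipocytes. IF fibroblasts had 8.81, 16.4 and 18.7 CPM against 1.54, 1.04 and 1.38 CPM in wildtype fibroblasts, without overlap, at a log2 fold change of 3.47 and an adjusted p of 0.00173 by edgeR's test. IF adipocytes had 1, 1 and 0 counts and wildtype adipocytes 1, 6 and 18 counts, a log2 fold change of -3.24 (adjusted p = 0.019 by edgeR's test), and the counts overlapped. PS adipocytes had 80 to 128 counts. IF pads had 11.6, 26.8 and 26.2 CPM. Wildtype pads fell apart by title number: those numbered 1 to 3 lay between 0.0608 and 0.0647 CPM and those numbered 13 to 15 between 13.8 and 27.0 CPM. Over all pads wildtype and IF therefore overlapped. The IF pads were numbered 7 to 9, and all lay above the wildtype pads numbered 1 to 3. The overlap came from the wildtype pads numbered 13 to 15, a set without IF pads. The other lines showed no such rise between sets. IFPS pads numbered 4 to 6 had 0.161, 0.103 and 0.295 CPM, and those numbered 16 to 18 had 0.105, 0.395 and 0.246 CPM. PS pads numbered 10 to 12 had 13.5, 12.3 and 17.7 CPM, and those numbered 19 to 21 had 0.118, 8.36 and 12.3 CPM. With the set of title numbers as covariate the log2 fold change in pads was 2.79, which was not called.

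ENSRNOG00000058006 had the largest called decrease. Wildtype MECs had 3.98, 10.3 and 8.62 CPM and IF MECs had 0.523, 0.77 and 1.02 CPM. The lowest wildtype library lay well above the highest IF library. The log2 fold change was -3.30 ± 0.64 (SE), with an adjusted p of 0.0443 by edgeR's test. The call held in 1 of the 6 fits that left out a library, the one without wildtype replicate 2, and was lost when only IF and wildtype MECs were fitted (adjusted p = 0.06). PS MECs ran from 0.626 to 4.50 CPM and IFPS MECs from 4.87 to 8.54 CPM.

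ENSRNOG00000058006 was abundant in adipocytes, at 2000 ± 530 CPM in wildtype and 1103 ± 788 CPM in IF (SD, n = 3 each). It was 1 of 120 genes at least 64-fold higher in adipocytes than in MECs and fibroblasts of PS and IFPS. The summed level of these 120 genes was 236, 212 and 215 CPM in wildtype MECs and 195, 186 and 248 CPM in IF MECs, so the groups overlapped for the set. Fibroblasts showed the same direction as MECs, with 3.58 to 12.4 CPM in wildtype and 0.887 to 1.62 CPM in IF. There the log2 fold change was -2.63, with an adjusted p of 0.0209 by edgeR's test.

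ENSRNOG00000030058 was the other lower identifier. Wildtype MECs had 4.28, 3.78 and 3.70 CPM (111 to 126 counts) and IF MECs had 1.44, 0.77 and 1.10 CPM (19 to 33 counts). PS MECs, at 1.69 to 2.15 CPM, and IFPS MECs, at 1.49 to 1.99 CPM, also lay below every wildtype library. The log2 fold change of IF was -1.83 ± 0.22 (SE), with an adjusted p of 0.00503 by edgeR's test. The call held in all 6 fits that left out a library and was lost when only IF and wildtype MECs were fitted (adjusted p = 0.06 by the same test). In fibroblasts it was -1.37, with an adjusted p of 0.0378 by edgeR's test.

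**Figure D3:**
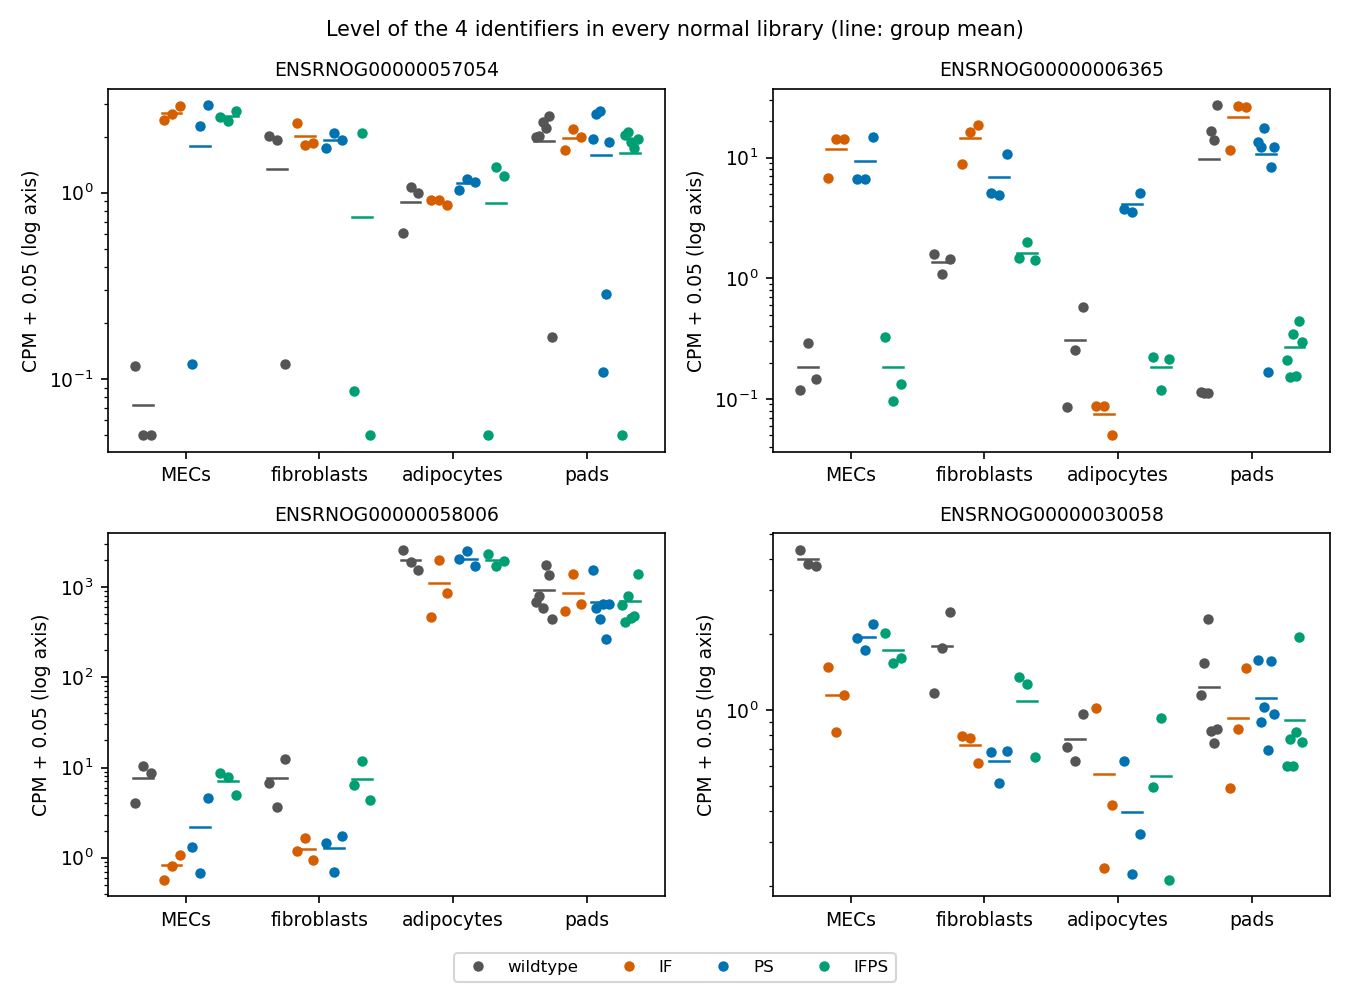
Level of the 4 identifiers (vertical axis, CPM plus 0.05, log scale) in every library of MECs, fibroblasts, adipocytes and pads, colored by line, with a bar at each group mean. In MECs the 3 IF points lie apart from the 3 wildtype points in each panel. In adipocytes and pads the IF and wildtype points overlap in range for each identifier. For ENSRNOG00000006365 in pads the overlap comes from the wildtype pads numbered 13 to 15.

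Whether the IF change was particular to epithelial cells was tested against fibroblasts, the other cultured cell type. The effect of IF differed between MECs and fibroblasts in 220 of 15224 genes (1.45%) by edgeR's test of the interaction. It was the more positive in MECs for 140 genes (0.92%) and in fibroblasts for 80 (0.525%), with a median absolute difference of 0.76 on the log2 scale. 24 of the 220 were called in MECs, 140 in fibroblasts, 2 of these in both, and 58 in neither. Same-numbered MEC and fibroblast libraries deviated together, and with the title number as a block 308 genes differed, among them 170 of the 220. The count was 84 without wildtype MEC replicate 1, 89 without IF fibroblast replicate 2, 98 without wildtype fibroblast replicate 3 and 99 without IF MEC replicate 2. It was 121 without IF MEC replicate 1 and 137 without IF fibroblast replicate 3. Without each of the remaining IF and wildtype libraries it ran from 157 to 262. A fit of only the IF and wildtype libraries gave 37.

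Of the 120 genes called in MECs, 24 had a different effect in fibroblasts, 17 higher and 7 lower in IF MECs. In 20 of the 24 the fitted sign in fibroblasts was opposite, as it was in 185 of all 220 genes with a different effect. These genes were chosen by the MEC values that enter the interaction, so their number is a description. None of the 4 identifiers was among the 24. The interaction was 2.93 ± 0.81 (SE) for ENSRNOG00000006365, with an adjusted p of 0.0757 by edgeR's test. It was 5.98 ± 1.97 for ENSRNOG00000057054 (adjusted p = 0.14 by the same test). Both interactions come from the fit without the title number as a block.

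Part of the change in MECs was also called in fibroblasts, where 7.66% of 13879 genes tested were called. All 50 lower genes were tested in fibroblasts and 22 of them were also lower there (44%), against 4.29% of all genes tested in fibroblasts. 1 was higher. Of the 64 higher genes tested, 11 were also higher in fibroblasts (17.2%), against 3.37% of all genes, and 0 were lower. The median log2 fold change in fibroblasts was -0.43 for the lower and 0.19 for the higher genes, against 0.00 over all genes tested. The difference between the 2 sets was not tested. Libraries of the 2 cell types share title numbers, so the 2 comparisons are not independent.

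**Figure D4:**
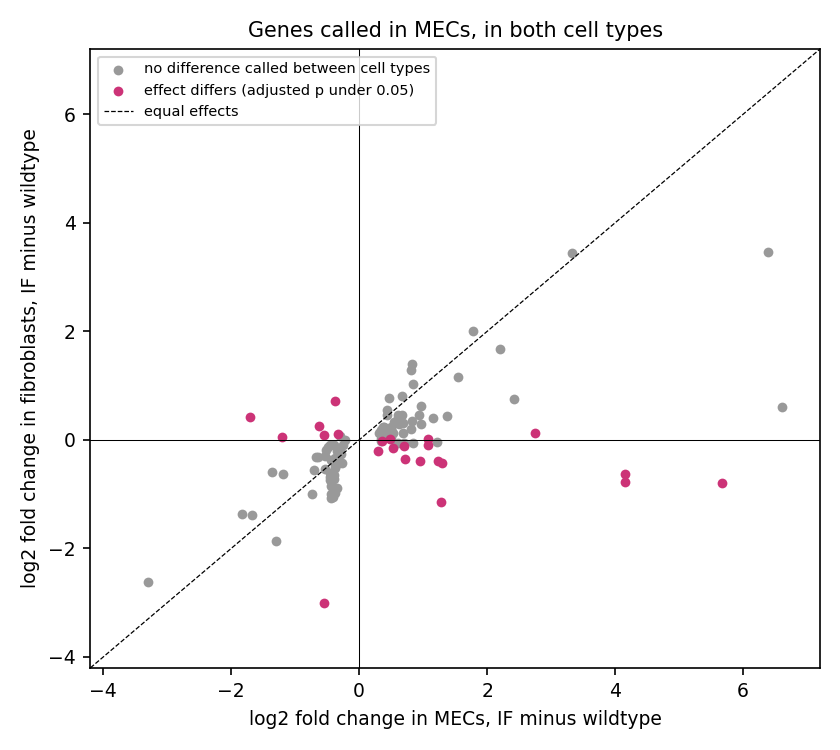
Log2 fold change of IF against wildtype in MECs (horizontal axis) and in fibroblasts (vertical axis) for the 114 genes called in MECs and tested in both cell types. Colored points mark genes whose effect differed between the cell types, and the dashed line marks equal effects; most points at negative changes in MECs are also negative in fibroblasts.

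IF adipocytes and pads gave another picture for the same genes. In adipocytes, where 48.2% of all genes tested were called (55.7% at an unadjusted p under 0.05), 20 of the 65 higher genes tested were also higher (30.8%, against 26.5% of all genes) and 12 were lower. Of the 50 lower genes, 9 were also lower (18%, against 21.7%) and 22 were higher (44%, against 26.5%). 6 higher and 4 lower genes were called in the same direction in MECs, fibroblasts and adipocytes. The share of all genes tested with such calls was not counted, so these numbers are a description. MEC-enriched genes took 1.83%, 0.557% and 1.60% of the counts in IF adipocytes, against 0.230% to 0.303% in wildtype adipocytes. Fibroblast-enriched genes took 1.89%, 1.35% and 1.85%, against 0.456% to 0.549%. Adipocyte-enriched genes took 15.6%, 25.5% and 18.1%, against 21.5% to 28.5%. The part of these shares in the adipocyte calls was not tested. In pads 0 of 16384 genes were called by edgeR's test (0%), with 306 genes at an unadjusted p under 0.05 (1.87%), and the median log2 fold change in pads was 0.01 for the higher and -0.01 for the lower genes. Whole pads hold many cell types, and fewer cells of a type and less RNA per cell cannot be told apart there.

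IF MECs were also compared directly with MECs of the other mutated lines. 10 genes differed between IF and PS (0.0681%), 4 higher in IF (0.0272%) and 6 lower (0.0408%), by edgeR's test. Between IF and IFPS 109 genes differed (0.742%), 34 higher in IF (0.231%) and 75 lower (0.511%). At an unadjusted p under 0.05 there were 1558 and 2192 genes. The IF and PS count was 4 without IF replicate 2, 5 without PS replicate 1 and 3 without PS replicate 3. The IF and IFPS count was 18, 10 and 27 without IF replicates 1, 2 and 3, and 41, 6 and 8 without IFPS replicates 1, 2 and 3. All comparisons of IF MECs share the IF libraries. Of the identifiers above, ENSRNOG00000006365 differed between IF and IFPS, at a log2 difference of 6.41 and an adjusted p of 0.00137 by edgeR's test. Between IF and PS its log2 difference was 0.32 (adjusted p = 0.843 by the same test).

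The mean level of the called genes placed PS and IFPS between the groups that chose them. For the 70 higher genes the mean log2 CPM was 3.46, 3.51 and 3.42 in wildtype MECs and 4.75, 4.68 and 4.76 in IF MECs. It was 4.42 to 4.59 in PS and 4.19 to 4.30 in IFPS MECs. For the 50 lower genes it was 5.68, 5.62 and 5.73 in wildtype and 4.99, 5.07 and 5.11 in IF MECs, with 5.29 to 5.40 in PS and 5.52 to 5.57 in IFPS. Wildtype and IF lie at the ends because the genes were chosen by their difference.

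Cell-type-enriched genes were examined for a shift in the makeup of the cultures. The sets were defined on PS and IFPS, which are mutated lines like IF. A change that IF MECs share with PS or IFPS MECs can therefore enter the definition, and its part in the medians was not tested. Among 970 MEC-enriched genes tested, 12 were higher in IF and 0 lower (1.24% called, against 0.817% of all genes), with a median log2 fold change of 0.20 against 0.00 over all genes. Among 257 fibroblast-enriched genes, 0 were higher and 1 was lower (0.389%), with a median of -0.13. Among 654 adipocyte-enriched genes, 5 were higher and 2 lower (1.07%), with a median of 0.02. When a library was left out, the median of the MEC-enriched genes ran from 0.12 without IF replicate 1 to 0.34 without wildtype replicate 2.

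The share of counts in MEC-enriched genes was 4.12%, 5.39% and 4.19% in wildtype MECs and 6.03%, 5.35% and 4.85% in IF MECs. Wildtype replicate 2 lay within the IF range. The means were 4.57% ± 0.712 and 5.41% ± 0.592 (SD, n = 3 each), and the two-sided exact permutation test gave p = 0.3 (adjusted over the 3 sets 0.45). The share in fibroblast-enriched genes was 2.52%, 2.36% and 2.57% in wildtype and 1.94%, 2.02% and 2.04% in IF. Here every IF library lay below every wildtype library (exact p = 0.1, the smallest that 3 against 3 allows, adjusted 0.3). PS MECs, at 1.82%, 2.07% and 1.89%, also lay below every wildtype library. IFPS MECs had 1.85%, 2.17% and 2.41%. These 2 lines also defined the set. The share in adipocyte-enriched genes was 2.23% ± 0.0852 and 2.30% ± 0.184 (exact p = 0.7, adjusted 0.7), with overlap. In fibroblast libraries of the same lines the fibroblast-enriched genes took 11.5% to 14.9%. The part of these shares in the calls above was not tested.

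**Figure D5:**
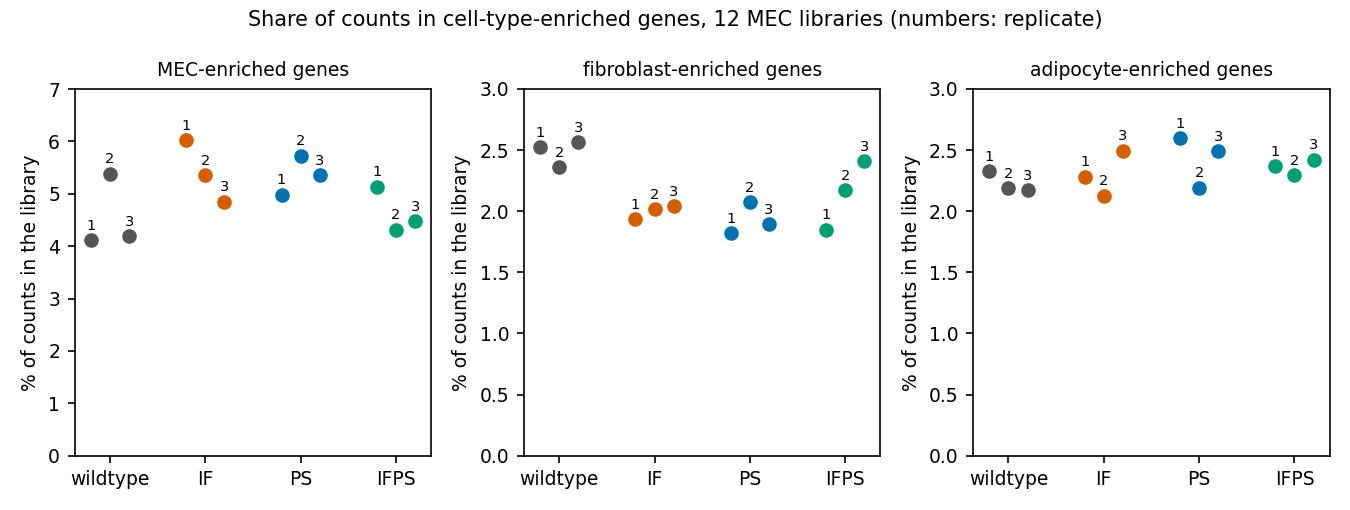
Share of each MEC library's counts (vertical axis, percent) in genes enriched in MECs, fibroblasts or adipocytes, by line, with the replicate number at each point. IF libraries lie below wildtype libraries for fibroblast-enriched genes, and wildtype replicate 2 lies among the IF libraries for MEC-enriched genes.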

How the data were processed

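Libraries made with an mRNA kit were sequenced from both ends, per the labels' protocols. The authors deposited raw counts per gene for 80 libraries. The submitters' processing notes name Trim Galore, STAR 2.5.2b and the build Rnor_6.0. The counting tool and strand setting are not given in the sources used here, so overlapping, antisense and near-identical genes are uncertain. The reference table has 47357 genes and 0 Ensembl identifiers.

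Counts were tested with edgeR 4.0.16 in R 4.3.3 (TMM, filterByExpr, quasi-likelihood test, Benjamini-Hochberg adjustment), with DESeq2 1.42.0 as an alternative. MECs of the 4 lines shared 1 fit with 8 residual degrees of freedom. The interaction used the MECs and fibroblasts. Pads had the set of title numbers as covariate. Printed CPM used TMM factors, and log2 CPM a prior count of 2. Every standard error of a log2 fold change was derived from the test. It is the absolute log2 fold change over the square root of the F statistic. Such a value is approximate, above all where a group had almost no counts. Title numbers pair MECs with fibroblasts: same-numbered deviations correlated at 0.111 to 0.243 in 12 of 12 pairs over 15224 genes. IF and wildtype MECs share no number, so the block could be used for the interaction alone. There it entered an alternative fit and not the main one. The fits were first tested on simulated data.

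Libraries, gene lists and the rule for the identifiers (2 higher and 2 lower with the largest called change and no overlap) were chosen with earlier results of these data known. The gene lists by symbol were not analysed here. Alternatives were size factors of the RLE type, no filter, DESeq2, fewer groups, thinned counts, 8-fold enrichment (added after seeing the data), the block and leaving out each library.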

Additional observations from a re-analysis of the deposited data

Results flagged for a closer look

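The effect of IF differed between MECs and fibroblasts in 220 genes by edgeR's test of the interaction, with 140 more positive in MECs and 80 more positive in fibroblasts. With the title number as a block 170 of the 220 were still called.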

How the results depend on the processing

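All 120 genes called between IF and wildtype MECs kept their direction in each alternative fit of that comparison. The count was 651 with DESeq2 (47.3% higher, against 58.3% in edgeR's fit; 118 genes shared), 23 in a fit of only those 2 groups (91.3% higher; 21 shared), and 10 to 645 when a library was left out. RLE size factors (97), no filter (161) and counts thinned to the shallowest MEC library (88) stayed within 1.5 times of it. For IF and PS, 10 genes became 6 with RLE, 27 with no filter, 207 with DESeq2, 6 with only the 2 groups and 3 to 12 with a library left out. For IF and IFPS, 109 became 470 with DESeq2 and 6 to 41 with a library left out. The interaction with fibroblasts was 539 with DESeq2 (51.9% more positive in MECs, against 63.6%), 37 with only IF and wildtype libraries, 308 with the replicate block (170 shared with the 220) and 84 to 262 with a library left out. The block could be run for the interaction alone. The cause of these moves was not tested. Of 44 alternative values for the 4 identifiers 32 kept the call and 12 lost it, none with a change of sign. In the fit of only 2 groups both lower identifiers had an adjusted p of 0.06. With genes 8-fold enriched in place of 4-fold, a limit set after seeing the data, 0.926% of the fibroblast-enriched genes were called. Under 1 CPM the median standard error was 0.41 on the log2 scale, which limits what 3 libraries a group can show.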

Other observations

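ENSRNOG00000057054 had either very few counts or clearly more in each library of isolated cells. Over all tissues both kinds occurred in all 4 lines, and the 1 low IF library was a tumor. Of the 12 MEC libraries 4 had at most 2 counts and the other 8 at least 53. Of 12 fibroblast libraries 3 had at most 2 counts and the others at least 47, and in 12 adipocyte libraries 1 had 0 counts and the others at least 16. 4 of 21 pads had at most 7 counts, and the others at least 37. 6 of 23 tumors had at most 6 counts, and the others at least 16. The 3 wildtype MEC libraries were all among the nearly absent, and wildtype fibroblasts 1 and 2 and all wildtype adipocytes were not.

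In IF tumors ENSRNOG00000006365 ran from 0.0554 to 11.1 CPM with a median of 4.91, against 11.6 to 26.8 CPM in IF pads. ENSRNOG00000058006 ran from 3.21 to 154 CPM in IF tumors and from 548 to 1382 CPM in IF pads. These levels were scaled separately for tumors and pads and were not compared by a test.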
